A study of Mus musculus with 20 samples.

Results

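Neurofilaments are the main intermediate filaments of neurons. They are built from a light, a medium and a heavy chain together with alpha-internexin, and in some neurons peripherin, and they set the calibre of large axons. Neurofilament protein that leaks from injured axons into blood and cerebrospinal fluid is followed as a marker in spinal muscular atrophy (SMA), the motor neuron disease caused by low levels of the SMN protein. The 5 genes Nefl, Nefm, Nefh, Ina and Prph encode these chains, and all 5 were found by their symbol among the 45700 genes of the deposited FPKM table, whose values are fragments scaled to transcript length and to library size.

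The data were total cytoplasmic RNA (RNA-seq) and RNA from pooled polysomal fractions (POL-seq) of whole mouse brain. SMA brains came from the severe "Taiwanese" model, Smn-/-; SMN2tg/0, in which the murine Smn gene is null and a human SMN2 transgene is present. Controls were heterozygous Smn-/+; SMN2tg/0 littermates, so both genotypes carried the transgene, and the line was congenic on FVB. Brains were taken at postnatal day 5 (early-symptomatic, 2 libraries per genotype and fraction) and at postnatal day 7 (late-symptomatic, 3 per genotype and fraction), which gave 20 libraries. The whole brain holds few motor neurons beside many other neurons. The table has no counts, so the reads behind each value are unknown and the spread between libraries is the only error given.

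Nefl encodes the light chain, the subunit without which the medium and heavy chains alone do not form regular filaments (ENSMUSG00000022055.7, GRCm38 chr14:68083863-68089095, plus strand). Nefm encodes the medium chain, which carries phosphorylated side arms (ENSMUSG00000022054.9, chr14:68082590-68124846, minus strand). Nefh encodes the heavy chain, the last of the triplet to accumulate as axons mature (ENSMUSG00000020396.8, chr11:4938754-4948064, minus strand). Ina encodes alpha-internexin, a neuronal subunit that appears early in brain development (ENSMUSG00000034336.3, chr19:47014698-47025327, plus strand). Prph encodes peripherin, found mainly in neurons that send axons to the periphery, among them brainstem and spinal motor neurons and sensory ganglion cells (ENSMUSG00000023484.11, chr15:99055174-99058978, plus strand). The identifiers are those of the deposited table and the positions are from Gencode M21.

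The 5 chains share a helical rod, and the sequence that encodes the end of the rod shows how close the genes are. The stretches below, of 4 of the genes, read from the GRCm38 genome and given 5′ to 3′ on the coding strand, cover 45 coding bases. They lie in exon 2 of Nefl, exon 2 of Nefm, exon 2 of Ina and exon 5 of Prph. Capitals mark the 35 bases that are identical in these 4 genes.
Nefl, chr14:68086040-68086084, plus strand: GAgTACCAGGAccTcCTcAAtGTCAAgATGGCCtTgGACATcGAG
Nefm, chr14:68122835-68122879, minus strand: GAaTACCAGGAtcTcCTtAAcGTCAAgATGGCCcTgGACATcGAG
Ina, chr19:47021899-47021943, plus strand: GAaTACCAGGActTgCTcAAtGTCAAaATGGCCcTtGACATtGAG
Prph, chr15:99057393-99057437, plus strand: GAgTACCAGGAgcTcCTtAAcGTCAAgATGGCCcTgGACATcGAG
Pairs of these genes differed at between 2 bases (Nefm and Prph) and 9 bases (Ina and Prph) of this window. Over whole transcripts, the longest run of identical bases in the same orientation was 35 bases, between Nefm and Prph. This is shorter than the 100-base reads.

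A different overlap joins Nefl and Nefm. The genes are neighbours on opposite strands, and the deposited table gives both the same locus. In Gencode M21 the last exon of a long Nefm transcript runs across 1108 bases of the first exon of Nefl (chr14:68083863-68084970), which is 32.78% of the exon bases of Nefl and 19.16% of those of Nefm. Ina shares 456 exon bases, 14.07% of its own, with Nt5c2 on the opposite strand (chr19:47014698-47015153). The library kit marks strand, but the methods state default settings for the programs and name no strand setting. How fragments of the shared bases were divided between the genes was not tested, so values of Nefl, Nefm and, to a smaller extent, Ina carry this uncertainty.

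Some libraries stood apart. In the 2 early-symptomatic control polysomal libraries, 8 genes that had at least 50 FPKM in every library of the other groups were listed at 0, against 0 to 3 genes in each of the other 18 libraries. Tubb3 and Map1b, abundant neuronal cytoskeleton genes, were among them. None of the 5 filament genes was listed at 0 in any library. The first of these control libraries also had an unusual balance of Nefl and Nefm, described below.

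The 5 genes differed widely in level. Over the 20 libraries Nefl averaged 90.0 FPKM (range 60.97 to 137.98), Ina 42.7 FPKM (26.7 to 53.74), Nefm 31.2 FPKM (23.08 to 42.86), Nefh 6.38 FPKM (4.49 to 8.68) and Prph 3.96 FPKM (2.17 to 7.41). Nefl was above Ina, and Nefm above Nefh, in all 8 groups without overlap. Ina was above Nefm without overlap in 5 of 8 groups, all 4 at day 7 among them, and the pair overlapped in the other 3. Nefh was above Prph in 5 groups, the pair overlapped in both early SMA groups, and Prph was the higher in the early control polysomal group. Nefl made the largest contribution to the summed FPKM of the 5 genes in every library.

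**Figure D1:**
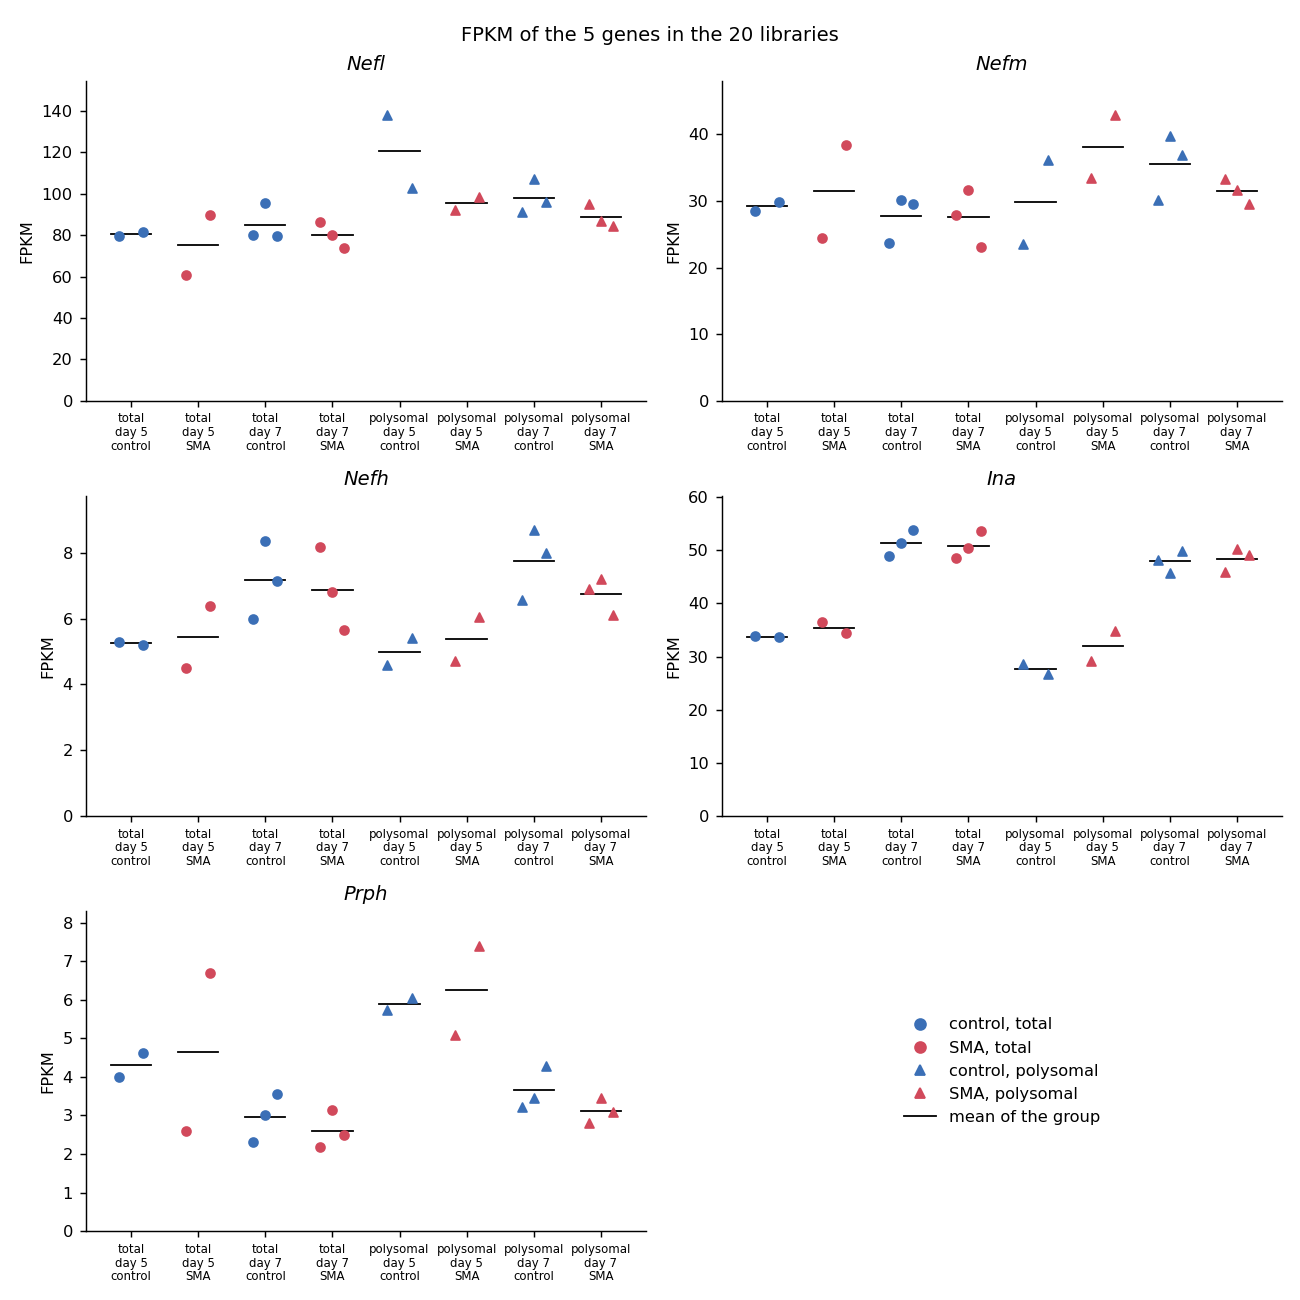
FPKM of each gene (vertical axes, from 0) in the 20 libraries, by fraction, day and genotype. Points are libraries and black lines group means. Control and SMA overlap in most pairs of groups, and Ina is near 30 FPKM in all day 5 groups and near 50 FPKM in all day 7 groups.

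Within each stage and fraction, SMA brains were set against controls to ask whether the filament genes changed with the disease at the level of the transcriptome or the translatome. None of the 5 was called. With limma on log2(FPKM + 0.1) over the 15247 genes that averaged at least 1 FPKM, and an unadjusted p under 0.05 taken as a call, 0 of 5 genes were called in early total RNA, where 8.25% of all tested genes were. Likewise 0 of 5 were called in early polysomal RNA (12.5% of all tested genes), in late total RNA (9.54%) and in late polysomal RNA (10.7%). After Benjamini-Hochberg adjustment over all tested genes, adjusted p for the 5 genes was at least 0.467 in these 4 comparisons. Single libraries could make a call: without the second early SMA total library, Nefl, Nefm and Prph had log2 changes of -0.40, -0.25 and -0.71, and without the first, Nefm had 0.40 (limma, unadjusted p between 0.00853 and 0.0466). Nefl was called in early polysomal RNA without the second control library (log2 -0.53), and Nefm and Nefh in late polysomal RNA without the first control library (log2 -0.28 and -0.30).

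Nefl in total RNA was 79.8 and 81.46 FPKM in early control libraries and 60.97 and 89.64 FPKM in early SMA libraries. At day 7 it was 80.07, 95.53 and 79.76 FPKM in control beside 86.54, 80.24 and 73.93 FPKM in SMA. The SMA libraries lay on both sides of the controls at day 5 and among and below them at day 7, and the groups overlapped at both days. The log2 change was -0.12 (SE 0.22) at day 5 and -0.08 (SE 0.10) at day 7.

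In polysomal RNA, Nefl was 137.98 and 103.05 FPKM in early control and 92.43 and 98.47 FPKM in early SMA, with both SMA libraries below both controls. An exact permutation test of 2 against 2 libraries cannot go below p = 0.333, even for such a separation. At day 7 Nefl was 91.09, 107.19 and 96.02 FPKM in control beside 95.03, 86.88 and 84.24 FPKM in SMA, where the groups overlapped. The log2 change was -0.32 (SE 0.18) at day 5 and -0.14 (SE 0.08) at day 7, and neither was called. Without the first early control library, at 137.98 FPKM, the day 5 change was -0.11. In 1 fit over both stages with stage as a covariate, Nefl was the only 1 of the 5 genes called, at 0.86-fold in SMA polysomal RNA (log2 -0.21, SE 0.09, 95% interval -0.42 to -0.01; limma, unadjusted p = 0.0425, adjusted p = 0.295). In that fit 16.2% of all tested genes were called. An exact two-sided permutation test within stages gave p = 0.0333, where the smallest p that its 120 arrangements allow is 0.0167. Without the first early control library the log2 change was -0.13 and the call was lost (limma, unadjusted p = 0.0583, adjusted p = 0.365). It was also lost without either early SMA library, without the second or the third late control library, and without the second or the third late SMA library, at log2 changes between -0.23 and -0.18. With the library number as a block, which joins different mice of the 2 genotypes, the log2 change was still -0.21, but the call was lost (limma, unadjusted p = 0.0801). The call was lost as well with the sum of hindbrain genes, described below, as a covariate (log2 -0.21, limma, unadjusted p = 0.0686). In whole-brain RNA, fewer neurons and less RNA per neuron cannot be told apart.

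Nefm in early polysomal RNA was 23.48 and 36.21 FPKM in control beside 33.49 and 42.86 FPKM in SMA, and in late polysomal RNA 30.11, 39.77 and 36.96 FPKM in control beside 33.26, 31.68 and 29.54 FPKM in SMA. The point estimates had opposite signs at the stages, with a log2 change of 0.38 (SE 0.28) at day 5 and -0.17 (SE 0.12) at day 7, but the groups overlapped each time. The day 5 estimate rested largely on the first control library, at 23.48 FPKM, and was 0.07 without it. The genotype by stage interaction, which tests the difference between stages directly, was -0.55 (SE 0.29) and was not called (limma, adjusted p = 0.431), and without that library it was -0.23. Without the second early control library it was -0.86. With the library number as a block, which joins different mice of the 2 genotypes, the interaction was called (limma, unadjusted p = 0.0462). In total RNA, Nefm was 28.5 and 29.86 FPKM in early control, 24.47 and 38.4 FPKM in early SMA, 23.64, 30.07 and 29.55 FPKM in late control and 27.94, 31.67 and 23.08 FPKM in late SMA. The SMA libraries reached above and below the controls at both days.

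Nefh, the heavy chain, was 5.29 and 5.21 FPKM in early control total RNA and 4.49 and 6.37 FPKM in SMA. At day 7 it was 5.98, 8.37 and 7.13 FPKM in control beside 8.18, 6.81 and 5.64 FPKM in SMA. Its polysomal levels were 4.59 and 5.4 FPKM in early control, 4.71 and 6.05 FPKM in early SMA, 6.56, 8.68 and 7.98 FPKM in late control and 6.9, 7.2 and 6.12 FPKM in late SMA. Genotypes overlapped in all 4 settings, and the log2 change ran from -0.19 (SE 0.13) in late polysomal RNA to 0.10 (SE 0.20) in early polysomal RNA.

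Ina had the smallest SD relative to its mean of the 5 genes in each day 7 group. Late total RNA had 48.93, 51.3 and 53.74 FPKM in control beside 48.64, 50.36 and 53.67 FPKM in SMA, and late polysomal RNA had 48.11, 45.76 and 49.87 FPKM in control beside 45.85, 50.27 and 49.04 FPKM in SMA. The late groups covered nearly the same range, with a log2 change of -0.01 in total RNA (95% interval -0.15 to 0.13) and 0.01 in polysomal RNA (-0.12 to 0.15). At day 5, Ina was 33.79 and 33.63 FPKM in control beside 36.47 and 34.4 FPKM in SMA total RNA, and 28.64 and 26.7 FPKM in control beside 29.08 and 34.87 FPKM in SMA polysomal RNA. Both early SMA groups lay above their controls without overlap, by 1.05-fold and 1.15-fold, but neither difference was called (limma, adjusted p = 0.621 and 0.493). An exact permutation test of 2 against 2 libraries cannot go below p = 0.333, even for such a separation.

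Prph had the largest SD relative to its mean in early SMA total RNA. It was 3.99 and 4.61 FPKM in early control total RNA and 2.59 and 6.71 FPKM in early SMA total RNA, so the 2 SMA libraries bracketed the controls. Early polysomal RNA had 5.73 and 6.06 FPKM in control beside 5.09 and 7.41 FPKM in SMA. Late total RNA had 2.3, 3.02 and 3.56 FPKM in control beside 2.17, 3.13 and 2.5 FPKM in SMA, and late polysomal RNA had 3.22, 3.45 and 4.29 FPKM in control beside 2.81, 3.46 and 3.08 FPKM in SMA. Genotypes overlapped throughout. The 95% interval of the early total log2 change, -1.68 to 1.61, leaves a large difference in either direction undetected.

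**Figure D2:**
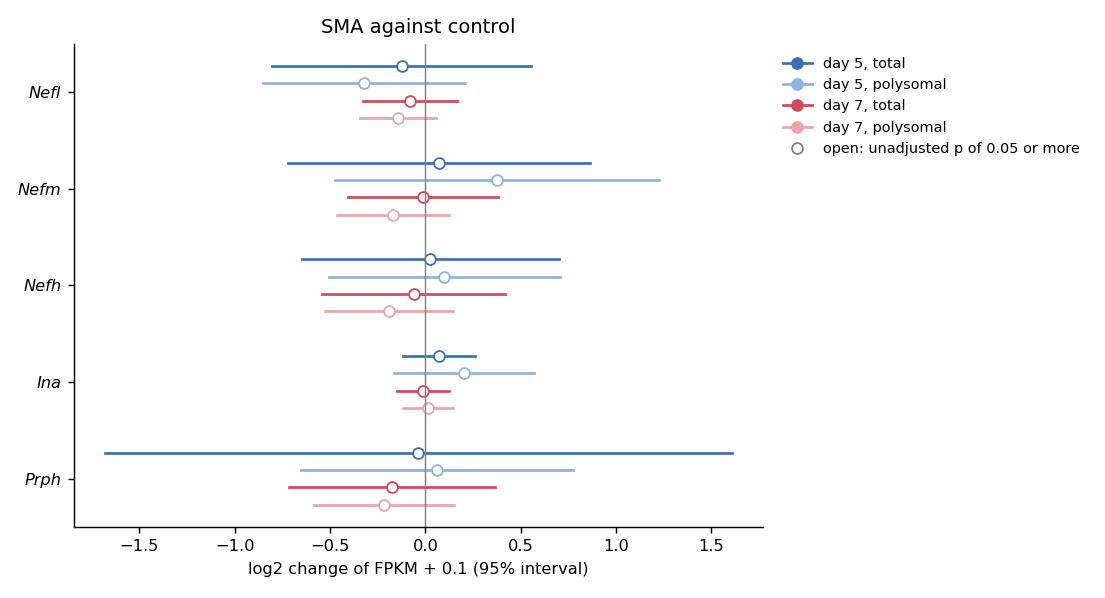
log2 change of FPKM + 0.1 in SMA against control (horizontal axis) for each gene, by day and fraction. Points are limma estimates and lines 95% intervals, and all points are open because none had an unadjusted p under 0.05. Every interval includes 0, and those of Ina at day 7 are the narrowest.

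Over both stages in total RNA, 0 of 5 genes were called (13.3% of all tested genes), and the median log2 change of the 5 genes was -0.03, beside 0.01 over all tested genes. In polysomal RNA over both stages these medians were -0.07 and 0.00. The interaction of genotype and stage called 0 of 5 genes in total RNA (10.1% of all tested genes) and 0 of 5 in polysomal RNA (13.7%). Translation efficiency (TE), the polysomal change minus the total change, was altered by genotype in 0 of 5 genes at day 5 (2.32% of all tested genes) and in 0 of 5 at day 7 (2.07%). The largest point estimate of a TE change was that of Nefm at day 5, at 0.31 on the log2 scale with an SE of 0.42. Without the first early control polysomal library it was -0.01, and that of Nefl, -0.20 over all libraries, was 0.01.

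The balance of the chains was examined within each library, since a ratio of genes does not depend on how the library was scaled. Nefl to Nefm was between 2.30 and 3.39 in 19 libraries and 5.88 in the first early control polysomal library. In that library Nefl was the highest of all 20 and Nefm the second lowest, while Nefh, Ina and Prph were at 4.59, 28.64 and 5.73 FPKM beside 5.4, 26.7 and 6.06 FPKM in the second library of its group. Of 8 tests of a log2 ratio to Nefl between genotypes, the smallest p was that of Ina to Nefl in polysomal RNA, higher in SMA by 0.30 on the log2 scale (exact permutation test within stages, p = 0.05, adjusted over the 8 tests p = 0.4). Ina to Nefl was 0.208 and 0.259 in early control and 0.315 and 0.354 in early SMA, and 0.528, 0.427 and 0.519 in late control and 0.482, 0.579 and 0.582 in late SMA. The early groups were apart, where an exact permutation test of 2 against 2 libraries cannot go below p = 0.333, and the late groups overlapped. The remaining 7 ratios had exact p between 0.217 and 0.95.

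**Figure D3:**
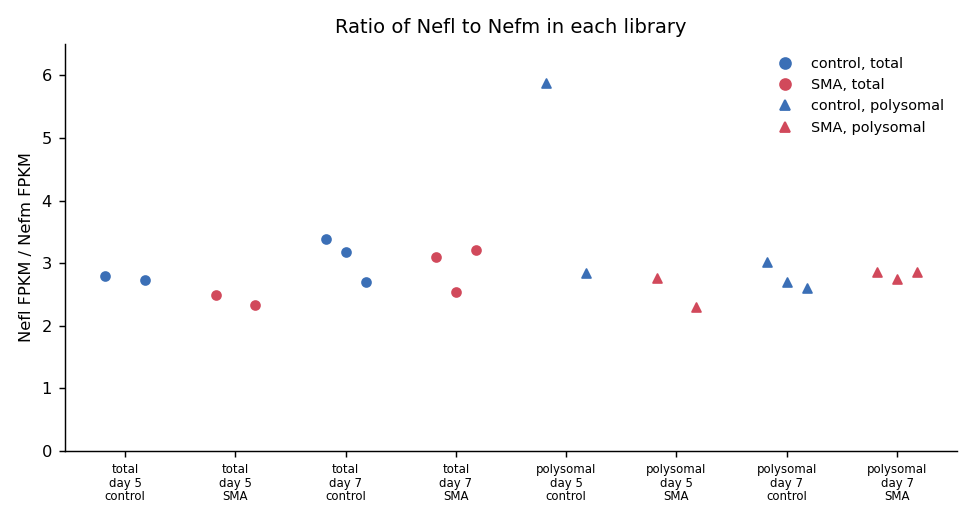
Ratio of Nefl to Nefm FPKM (vertical axis, from 0) in each library, by fraction, day and genotype. Points are libraries. The first early control polysomal library is at 5.88 and the other 19 lie between 2.30 and 3.39.

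Within single comparisons, more of the 5 genes were called between stages than between genotypes, as was also the case over all tested genes. The stage calls were of Ina, Prph and Nefh, and none was of Nefl or Nefm. Day 7 was compared with day 5 within each genotype and fraction, a question of brain maturation over 2 days. The stages were different mice, and a sequencing batch, which the labels do not give, cannot be told apart from stage. Ina was higher at day 7 in all 4 comparisons, by 1.52-fold in control total RNA (log2 0.60, SE 0.05; limma, adjusted p = 0.0108), 1.73-fold in control polysomal RNA (log2 0.79, SE 0.06; adjusted p = 0.0133), 1.43-fold in SMA total RNA (log2 0.52, SE 0.07; adjusted p = 0.0365) and 1.52-fold in SMA polysomal RNA (log2 0.60, SE 0.10; adjusted p = 0.0279). Every day 7 library, at 45.76 FPKM or more, was above every day 5 library, at 36.47 FPKM or less.

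Prph moved the other way. In polysomal RNA it fell from 5.89 ± 0.23 FPKM (SD, n = 2) to 3.65 ± 0.56 FPKM (SD, n = 3) in control, a 0.62-fold level (log2 -0.69, SE 0.16; limma, unadjusted p = 0.0117, adjusted p = 0.0527). In SMA polysomal RNA it fell from 6.25 ± 1.64 FPKM (n = 2) to 3.12 ± 0.33 FPKM (n = 3), a 0.51-fold level (log2 -0.96, SE 0.21; limma, unadjusted p = 0.00837, adjusted p = 0.0436). The day 5 and day 7 libraries did not overlap in either case. The control call was lost without the second early control library (log2 -0.65; limma, adjusted p = 0.137). The total RNA changes, -0.54 (SE 0.22) in control and -0.68 (SE 0.46) in SMA on the log2 scale, were not called. The control change was -0.68 and called without the third late library (unadjusted p = 0.0339). The SMA change was -1.35 and called without the first early library (unadjusted p = 0.0118), and -0.01 without the second.

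Nefh was higher at day 7 in control polysomal RNA, by 1.53-fold (log2 0.62, SE 0.17; limma, unadjusted p = 0.0192, adjusted p = 0.0683). This call was lost without the first early control polysomal library (log2 0.50, adjusted p = 0.24), and without the second or the third late one (log2 0.53 and 0.59). Its log2 change was 0.43 (SE 0.17) in control total, 0.34 (SE 0.24) in SMA total and 0.33 (SE 0.15) in SMA polysomal RNA, none of them called. Leaving out single libraries gave 0.31 to 0.55, 0.09 to 0.59 and 0.15 to 0.50 in that order. Nefh was called in control total RNA without the first late library (limma, unadjusted p = 0.0184). In SMA polysomal RNA it was called without the second early library (limma, unadjusted p = 0.0385). Nefl and Nefm were called in none of the 4 comparisons, with log2 changes between -0.28 and 0.28. Both of these extremes were in control polysomal RNA, and without the first early library there they were -0.07 for Nefl and -0.03 for Nefm. Without the second early library they were -0.50 and 0.59 and both were called (limma, unadjusted p = 0.0199 and 0.0474). In SMA total RNA, Nefl was called at 0.39 without the second early library (limma, unadjusted p = 0.034). The other end of its range over left-out libraries was -0.16. In SMA polysomal RNA, Nefm was called at -0.45 without the first early library (limma, unadjusted p = 0.0118), and the other end of its range was -0.09.

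In counts, 1 of 5 genes was called in control total RNA, where 40.3% of all tested genes were, 3 of 5 in control polysomal RNA (42.0%), 1 of 5 in SMA total RNA (32.7%) and 2 of 5 in SMA polysomal RNA (41.0%). These shares lay on both sides of those of all tested genes. Calls for a higher level at day 7 made up 20.1%, 20.7%, 15.7% and 21.1% of all tested genes in the same order, and calls for a lower level 20.1%, 21.4%, 17.0% and 19.9%. The change with stage was not shown to differ between genotypes, since the interaction of genotype and stage was not called for any of the 5.

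**Figure D4:**
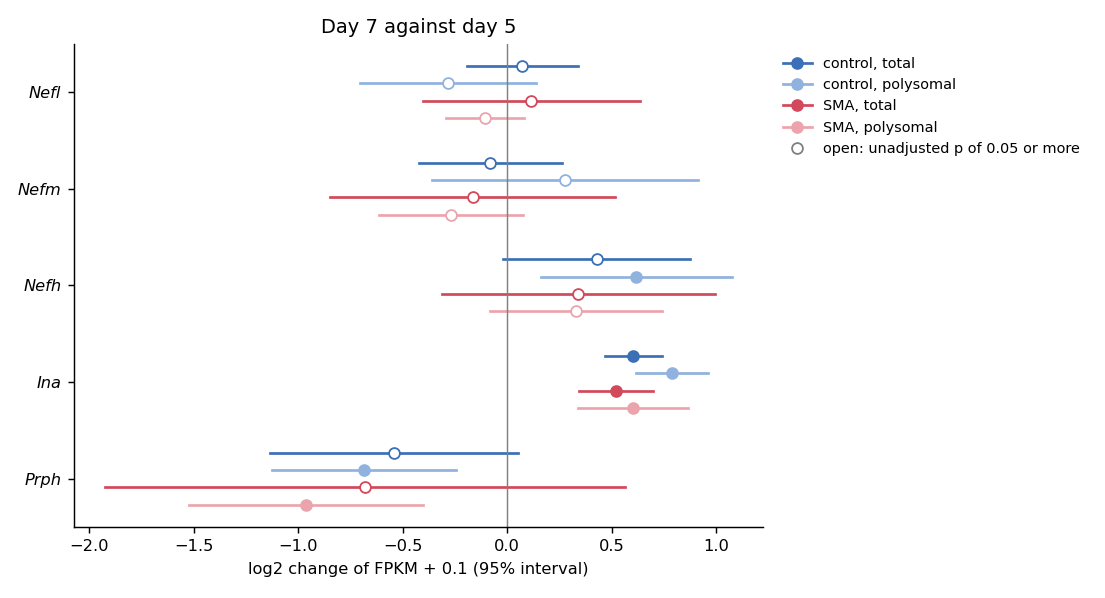
log2 change of FPKM + 0.1 at day 7 against day 5 (horizontal axis) for each gene, by genotype and fraction. Points are limma estimates, lines 95% intervals, and filled points have an unadjusted p under 0.05. Ina lies between 0.52 and 0.79 with filled points throughout, and Prph lies below 0 with filled points in both polysomal comparisons.

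Polysomal RNA was compared with total RNA to ask how the transcripts were distributed to polysomes. In control brains at day 5, Nefl was 1.48-fold higher in polysomal RNA (log2 0.56, SE 0.17; limma, unadjusted p = 0.0395), Prph 1.37-fold higher (log2 0.45, SE 0.14; unadjusted p = 0.0401) and Ina 0.82-fold (log2 -0.28, SE 0.06; unadjusted p = 0.0171). Thus 3 of 5 genes were called, where 25.9% of all tested genes were, but adjusted p was 0.178, 0.179 and 0.139. Each of the 3 calls was lost without either of the total libraries, and that of Prph without any 1 of the 4 libraries. Without the first polysomal library the change of Nefl was 0.35 and Nefm was called higher (log2 0.31), and without the second it was called lower (log2 -0.31). With libraries taken as unpaired, none of the 5 was called in control at day 7 (25.3% of all tested genes), SMA at day 5 (12.6%) or SMA at day 7 (29.6%). With the library number as a block, a pairing that the labels do not state, Nefl, Nefm and Prph were called higher in late control polysomal RNA (limma, adjusted p = 0.0766, 0.0459 and 0.16) and Nefl and Prph in late SMA polysomal RNA (adjusted p = 0.0557 and 0.124). The same block ended the early control calls of Nefl and Prph, at the same log2 changes (limma, unadjusted p = 0.0536 and 0.0611). That of Prph was also lost in 1 model over all libraries (limma, unadjusted p = 0.194). In the order control early, control late, SMA early and SMA late, the log2 change of Nefl was above 0 throughout, at 0.56, 0.21, 0.37 and 0.15. That of Prph was also above 0, at 0.45, 0.31, 0.54 and 0.26, and that of Ina below 0, at -0.28, -0.10, -0.15 and -0.07. The medians over all tested genes were 0.02, 0.05, 0.00 and 0.05 in the same order. Leaving out single libraries, the SMA early change lay between 0.09 and 0.65 for Nefl and between -0.13 and 1.21 for Prph.

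Prph is a marker of neurons with peripheral axons, so genes of the hindbrain and spinal cord were read beside it. The summed FPKM of 12 Hox and glycinergic genes (10 Hox genes from Hoxa2 to Hoxb5, with the glycine transporter gene Slc6a5 and the glycine receptor gene Glra1) differed between brains of 1 group. In total RNA it was 5.38 and 14.99 in early control, 9.22 and 18.8 in early SMA, 1.14, 5.3 and 13.05 in late control and 5.73, 14.84 and 4.62 in late SMA libraries. In polysomal RNA it was 4.96 and 16.69, 7.72 and 19.24, 1.33, 6.27 and 12.86, and 6.45, 15.22 and 3.85 in the same order. Slc6a5 was the most abundant of the 12 genes in every library, and 3 of the 12 averaged at least 1 FPKM and were tested. Up to 8 of the 12 were listed at 0 in a library, the most in the first late control total library. None of the 3 tested genes was called between genotypes or stages. Their median log2 change at day 7 against day 5 was -1.26 in control total, -1.22 in control polysomal and -0.80 in both SMA comparisons. Their median log2 change in SMA against control was 0.49 in early total, 0.29 in early polysomal, 0.87 in late total and 0.58 in late polysomal RNA.

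The library with the highest sum was also the library with the highest Prph in 8 of 8 groups, and the lowest coincided in 6 of 8. For Nefm the lowest coincided in 8 of 8 groups and the highest in 5. For Nefh the counts were 4 highest and 7 lowest, for Nefl 3 and 6, and for Ina 4 and 2. Total and polysomal libraries with the same number ranked alike in this sum, so the 8 groups are not independent. Each early group holds 2 libraries, so its highest and lowest agree or disagree together. The full order agreed in 6 of 8 groups for Prph and in 5 for Nefm. With the log2 of the sum as a covariate, chosen after seeing the data, the log2 change of Prph at day 7 was smaller in all 4 comparisons. It went from -0.54 to -0.36 in control total RNA (limma, unadjusted p = 0.0243, adjusted p = 0.1), from -0.69 to -0.60 in control polysomal RNA (adjusted p = 0.0869), from -0.68 to -0.25 in SMA total RNA (adjusted p = 0.755) and from -0.96 to -0.82 in SMA polysomal RNA (adjusted p = 0.0912). The same covariate gave a call for lower Prph in late SMA total RNA (log2 -0.32; limma, unadjusted p = 0.0464, adjusted p = 0.527) and none for the other 4 genes there. Each stage fit held 2 early and 3 late libraries, too few to separate the sum from stage. The part that the amount of hindbrain in each sample has in the values of Prph was not tested.

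**Figure D5:**
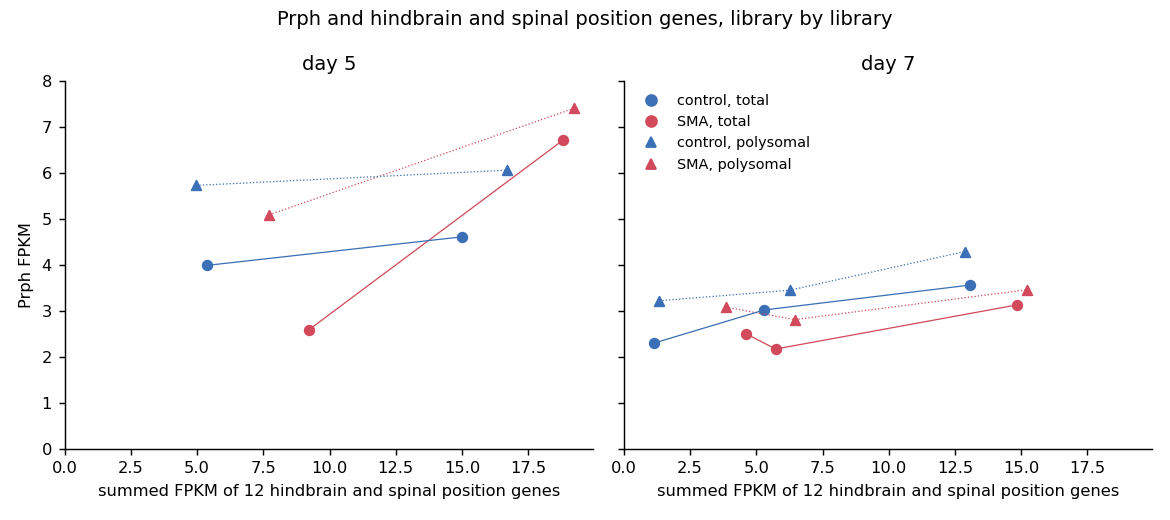
Prph FPKM (vertical axis) against the summed FPKM of 12 hindbrain and spinal position genes (horizontal axis) in each library, by day. Points are libraries, and lines join the libraries of 1 genotype and fraction (solid for total, dotted for polysomal). In all 8 groups the rightmost library has the highest Prph.

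The other gene lists were read in the 4 single stage and fraction comparisons of genotype, and over both stages where stated. Of 10 cholinergic and cranial motor neuron genes, 4 averaged at least 1 FPKM. Between genotypes, the only 1 called was Slc18a3, the vesicular acetylcholine transporter gene, which was higher in late SMA polysomal RNA (log2 0.39, SE 0.15; limma, adjusted p = 0.459). Calls made up 8.25% to 12.5% of all tested genes between genotypes and 32.7% to 42.0% between stages. Isl1, a motor neuron and striatal transcription factor gene, was lower at day 7 in control polysomal RNA (log2 -0.72) and SMA total RNA (log2 -0.64). Of 8 sensory ganglion genes, 3 were tested. Scn9a, a sodium channel gene of sensory neurons, was higher in SMA at day 5 (log2 0.66 in total and in polysomal RNA) and lower in late SMA polysomal RNA (log2 -0.25). It was lower at day 7 in all 4 comparisons, by a log2 change between -1.51 and -0.55 (limma, adjusted p between 0.00926 and 0.0426).

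Most pan-neuronal genes were higher at day 7. Of 12 pan-neuronal genes, 9 rose in control total, 9 in control polysomal, 7 in SMA total and 8 in SMA polysomal RNA, and 0 fell, where 20.1%, 20.7%, 15.7% and 21.1% of all tested genes rose. Their median log2 change was 0.39, 0.61, 0.41 and 0.51, beside -0.03, -0.03, -0.04 and -0.01 over all tested genes. The count of 9 in control polysomal RNA includes Tubb3, which was listed at 0 in both early libraries. Syt1, a synaptic vesicle calcium sensor gene, rose by a log2 change of 0.94, 1.28, 0.84 and 0.90 in these 4 comparisons, and Thy1, a surface glycoprotein gene of projection neurons, by 0.82, 1.25, 0.97 and 0.90. The summed FPKM of the 12 genes, of which Stmn2 was the most abundant, was 2880.42 to 3896.88 in the 8 early libraries and 4000.57 to 5595.78 in the 12 late ones. Between genotypes, 1 of 12 was called in each of early total (Map2), early polysomal (Tubb3) and late total RNA (Map2), and 0 in late polysomal RNA. Of all tested genes, 8.25%, 12.5%, 9.54% and 10.7% were called in these comparisons. Map2 was higher in SMA both times. The Tubb3 call rested on its 0 in both early control libraries, so no higher level in SMA is read from it. Of 7 genes of large projection neurons, 4, 3, 2 and 3 rose at day 7 in the order above, beside the same shares of all tested genes, and 0 fell. Fezf2, a transcription factor gene of corticospinal neurons, and Scn4b, a sodium channel subunit gene, were among them each time. Between genotypes, Scn4b in early total RNA and Slc17a6 in late total RNA were called higher in SMA. Over both stages, Spp1 was called lower in SMA in total and polysomal RNA, and Bcl11b higher in total RNA. In these fits 13.3% of all tested genes were called in total and 16.2% in polysomal RNA.

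Most of the other intermediate filament genes fell with stage. Of 8 tested (of 10 listed), 0 rose at day 7, and 5 fell in control total, 5 in control polysomal, 5 in SMA total and 6 in SMA polysomal RNA. Of all tested genes, 20.1%, 21.4%, 17.0% and 19.9% fell. The median log2 change of the 8 genes was -0.56, -0.80, -0.58 and -0.56 in that order. Vim, the vimentin gene of progenitors, glia and vessels, fell by a log2 change between -1.27 and -1.06. Lmnb1, a nuclear lamin gene abundant in dividing cells, fell by a log2 change between -1.03 and -0.79. Nes, the nestin gene of neural progenitors, was also among the genes that fell in all 4 comparisons. Between genotypes only Krt18, a keratin gene, was called, higher in late SMA total RNA (log2 0.39, SE 0.09; limma, adjusted p = 0.327). Calls between genotypes made up 8.25% to 12.5% of all tested genes.

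Kinases of the neurofilament side arms, with a kinase activator and phosphatase genes, were examined next. Of 9 such genes, 5 rose in control total, 5 in control polysomal, 3 in SMA total and 6 in SMA polysomal RNA, and 0 fell. Of all tested genes, 20.1%, 20.7%, 15.7% and 21.1% rose. The median log2 change of the 9 genes was 0.23, 0.33, 0.20 and 0.18, beside -0.03, -0.03, -0.04 and -0.01 over all tested genes. The 3 genes called in SMA total RNA were Cdk5r2, Gsk3a and the phosphatase gene Ppp2ca. Cdk5r2, which encodes the p39 activator of Cdk5, rose most, by a log2 change of 1.95, 2.45, 1.88 and 2.32 (limma, adjusted p between 0.0022 and 0.014). Gsk3a, another kinase gene of the list, rose by a log2 change of 0.53 in control total and 0.66 in SMA total RNA. Between genotypes, 0 of the 9 were called in any single stage and fraction, where 8.25% to 12.5% of all tested genes were.

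Motors and linkers of neurofilaments were mixed. Of 8 motor genes, Kif5a, a neuronal kinesin heavy chain gene whose product moves neurofilaments along axons, was higher in early SMA total RNA (log2 0.21, SE 0.06), as was Dctn1, a dynactin gene (log2 0.42, SE 0.12). Kif5b, the ubiquitous kinesin gene, was lower in late SMA total RNA (log2 -0.08, SE 0.03) and late SMA polysomal RNA (log2 -0.18, SE 0.05). None of these had an adjusted p under 0.05 (limma). With stage, 2 rose and 2 fell in control total, 1 rose and 1 fell in control polysomal, 2 fell in SMA total and 3 fell in SMA polysomal RNA, where 15.7% to 21.1% of all tested genes rose and 17.0% to 21.4% fell. Of 6 linker genes, Map1b, Myo5a and Mapt were higher in early SMA total RNA (limma, adjusted p = 0.551 for each). Map1b was listed at 0 in both early control polysomal libraries, and no fold is given for it there. The 3 calls in early polysomal RNA were Map1b, Macf1 and Dst, and those of Macf1 and Dst turned to log2 changes of -0.19 and -0.17 with a correction for transcript length. No linker gene was called between genotypes at day 7. Between genotypes, 8.25% of all tested genes were called in early total and 12.5% in early polysomal RNA. At day 7 these shares were 9.54% in total and 10.7% in polysomal RNA. With stage, 3 of the 6 rose and 2 fell in control total RNA, and 2 rose in control polysomal RNA. In SMA, 1 rose and 2 fell in total RNA, and 2 fell in polysomal RNA, beside the stage shares given for the motors. Macf1 and Dst fell in control total and both SMA comparisons. Mapt rose in both control comparisons and Myo5a in control total RNA. Map1b was called higher in both control comparisons and in SMA total RNA, the control polysomal call resting on its 0 in the early libraries.

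Arhgef28, which encodes a protein that binds neurofilament mRNA, was higher in SMA total RNA at day 5 (log2 0.40, SE 0.10; limma, adjusted p = 0.551) and at day 7 (log2 0.22, SE 0.08; adjusted p = 0.52). Smn1, which is targeted in the model, was 9.71 and 8.92 FPKM in early control and 9.55 and 10.09 FPKM in early SMA total RNA, and 13.56, 14.09 and 16.7 FPKM in late control and 11.94, 12.65 and 17.49 FPKM in late SMA. These whole-gene values overlapped between genotypes and do not test the genotype labels, since the null allele alters a part of the gene only.

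Among cell type markers, endothelial genes moved with genotype. Of 6, 5 were lower in early total, 3 in early polysomal, 5 in late total and 5 in late polysomal SMA RNA, where 3.89%, 6.82%, 4.7% and 5.38% of all tested genes were called lower. Their median log2 change was -0.55, -0.55, -0.58 and -0.62. Over both stages, the sixth gene, Slc2a1, a glucose transporter gene, was called higher in SMA total RNA. Cldn5, a tight junction gene, had log2 changes between -1.62 and -1.01 (limma, adjusted p between 0.101 and 0.385). The complement genes C1qa and C1qb were higher in late SMA total and polysomal RNA, and P2ry12, a gene of resting microglia, was lower in early SMA total, early SMA polysomal and late SMA total RNA. Of 6 astrocyte genes, Slc1a2 was called higher in early SMA total RNA. Over both stages, Slc1a2 and Slc1a3 were called higher in SMA total RNA and Aqp4 lower in SMA polysomal RNA. In these fits 13.3% of all tested genes were called in total and 16.2% in polysomal RNA. Of 5 erythroid genes Hba-a2 was lower in early total and Hbb-bt in late polysomal SMA RNA, with reads of the near-identical globin copies not told apart. The 6 oligodendrocyte genes gave 0 calls between genotypes or stages. Calls in either direction made up 8.25%, 12.5%, 9.54% and 10.7% of all tested genes between genotypes (early total, early polysomal, late total, late polysomal). Between stages they made up 32.7% to 42.0%. The summed polysomal FPKM of the 6 endothelial genes, led by Cldn5, was 142.0 and 95.32 in early control, 60.03 and 50.27 in early SMA, 69.26, 68.65 and 77.37 in late control and 43.83, 51.69 and 43.49 in late SMA libraries. Its highest library was the early control library with the highest Nefl. The part of cell composition in the Nefl difference was not tested.

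The genes most like each member over the 20 libraries, by Pearson's r of log2(FPKM + 0.1), were named as a description. The 20 libraries fall into 2 stages, and total and polysomal libraries may come from the same brains. Ina was most like Cherp (r = 0.988) and Atat1, the alpha-tubulin acetyltransferase gene (r = 0.977), Nefh like Fubp3 (r = 0.918), Nefl like Tnfrsf12a (r = 0.927), Nefm like Ccar1 (r = 0.802) and Prph like Col9a1 (r = 0.91). Among the members themselves, Ina and Nefh were the most alike (r = 0.716) and Ina and Prph the most opposed (r = -0.731). Nefl and Nefm had r = 0.349.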

How the data were processed

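Per the file headers and the labels, the authors deposited FPKM values per gene and library, from 100-base reads aligned to GRCm38.p4 with TopHat2 2.0.14 and quantified with Cufflinks 2.2.1 (submitters' processing notes) under Gencode M6. FPKM is scaled to gene length and to the mapped fragments of each library, so a few abundant genes can shift all others. All 20 columns were matched to samples by their labels. The 15247 genes averaging 1 FPKM or more were fitted as log2(FPKM + 0.1) with limma 3.58.1 (R 4.3.3, lmFit, eBayes with trend), tested on simulated data, in 18 comparisons of the groups named. A call is an unadjusted two-sided p under 0.05, as in the study, and Benjamini-Hochberg adjustment ran over all tested genes. The study's CuffDiff and Xtail need alignments or counts and were not used. A fold is on the log2(FPKM + 0.1) scale and understates changes of weak genes.

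The 5 genes and the other lists were chosen with earlier results of these data known. Some items of these lists are not reported here. From each list, up to 3 called genes whose groups did not overlap are named, largest change first. Exact permutation tests kept stages fixed. Between 2 and 2 libraries an exact test cannot go below p = 0.333, and between 3 and 3 not below 0.1. Nothing in the labels says that libraries with the same number came from 1 brain. Alternatives were other pseudocounts, filters, scalings, trends, a length correction, 1 model over all libraries, a replicate block and leaving out each library. Sequences and exons were read from the GRCm38 genome with Gencode M21.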

Additional observations from a re-analysis of the deposited data

How the results depend on the processing

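Under all alternatives Ina kept its higher level at day 7 with an unadjusted p under 0.05 in the 4 comparisons. Leaving out single libraries gave log2 changes of 0.57 to 0.64, 0.74 to 0.84, 0.48 to 0.56 and 0.47 to 0.73 (control total, control polysomal, SMA total, SMA polysomal), with limma adjusted p between 0.0212 and 0.151, and up to 0.327 over all alternatives. Lower Prph in SMA polysomal RNA at day 7 also kept its call wherever it was tested.

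The counts of the 5 genes called that moved by over 1.5 times were as follows, and 7 other counts moved by 1 gene. The replicate block joined same-numbered libraries, whose deviations correlated between -0.09 and 0.11, which did not establish pairs. Hindbrain gene sums ranked alike between total and polysomal libraries. Between genotypes or stages the block joined different mice, so there it is no check of pairing. For stage it left the third late library without a partner. The block gave 0 in place of 1 in SMA against control over both stages in polysomal RNA (Nefl, limma, adjusted p = 0.42). It gave 1 in place of 0 in the polysomal genotype by stage interaction (Nefm) and 2 in place of 1 for stage in control total RNA. For polysomal against total RNA it gave 1 in place of 3 in early control, 3 in place of 0 in late control and 2 in place of 0 in late SMA. The hindbrain covariate, chosen after seeing the data, gave 0 over both stages in polysomal RNA, 1 in late total SMA against control (Prph), 1 in the polysomal interaction (Nefm), 2 for stage in control total and 2 for polysomal against total in late control. For stage in control total RNA, the filter above 0 in every library and the robust trend gave 3, and quantile scaling, length correction and 1 model over all libraries gave 2. The 1 model also gave 1 in early polysomal SMA against control (Ina), 2 for stage in SMA total and 1 for polysomal against total in early SMA. In late control polysomal against total, that filter, quantile scaling, length correction and the robust trend gave 1, as did quantile scaling in late SMA. A filter at a mean of 5 FPKM removed Prph and gave 1 for stage in SMA polysomal RNA. At an adjusted p under 0.05 the counts were 0 over both stages in polysomal RNA, 1 for stage in control polysomal and 0 for polysomal against total in early control, and at an unadjusted p under 0.01 they were 0, 1 and 0.

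Leaving out single libraries, where a lone library is assumed to vary like the rest, gave counts of 0 to 3 in early total, 0 to 1 in early polysomal, 0 to 0 in late total, 0 to 2 in late polysomal, 0 to 0 and 0 to 1 over both stages (total, polysomal), 0 to 0 and 0 to 2 for the interactions, and 0 to 0 for either change in TE. For stage they were 1 to 2 (control total), 2 to 4 (control polysomal), 1 to 2 (SMA total) and 2 to 3 (SMA polysomal). For polysomal against total they were 0 to 3 and 0 to 1 in control, and 0 to 1 and 0 to 2 in SMA. The ratio of Ina to Nefl in polysomal RNA lay between 0.22 and 0.37 on the log2 scale. Nefm in early total SMA against control lay between -0.25 and 0.40, and was called in both directions. Nefm in early control polysomal against total RNA lay between -0.31 and 0.31, also called in both directions. Macf1 and Dst reversed at -0.19 and -0.17 with the length correction. For changes not called either way, 89 of 1579 values changed sign. The causes were not tested.

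The absence of counts and the 2 libraries per early group limit detection.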
